A study of Danio rerio with 340 samples.

Results

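The genes of the mitochondrial genome were taken as all genes of the count table whose symbol begins with mt- or with NC-002333, the prefix of genes placed on the zebrafish mitochondrial reference sequence. The rule gave 37 of 31658 genes, of which 13 carry the mt- prefix and 24 the NC-002333 prefix, and it used no measured value. The 13 mt- symbols all matched a protein-coding mitochondrial gene in RefSeq by synonym. The 24 NC-002333 genes matched no gene name in the tables used here, so they are given by their identifiers and no role is assigned to any single one. RefSeq lists 37 genes on the mitochondrial chromosome: 13 protein-coding, 22 for transfer RNAs and 2 for ribosomal RNAs. Since the mt- genes cover the protein-coding ones, the NC-002333 genes should be those of the transfer and ribosomal RNAs. Which identifier belongs to which was not established.

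Mitochondrial DNA is a small circle kept in many copies per cell. It is transcribed from both strands as long precursors that are cut into messenger RNAs, transfer RNAs and ribosomal RNAs, so the levels of single products also depend on how each is processed and how stable it is. Its 13 proteins are core subunits of the respiratory chain: mt-nd1, mt-nd2, mt-nd3, mt-nd4, mt-nd4l, mt-nd5 and mt-nd6 belong to complex I (NADH dehydrogenase), mt-cyb to complex III (cytochrome bc1), mt-co1, mt-co2 and mt-co3 to complex IV (cytochrome c oxidase), and mt-atp6 and mt-atp8 to complex V (ATP synthase). The remaining subunits, and all of complex II (succinate dehydrogenase), are encoded in the nucleus.

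Single whole zebrafish larvae at 5 dpf (days post fertilization) had been kept since 5 to 6 hpf (hours post fertilization) in valproic acid at 0, 1, 5 or 20 µM (160 larvae of the strains AB, TU, RW, WIK and PET, 8 per strain and dose), in hydroxyurea at 0, 1.3, 6.6 or 33 mM (104 larvae of AB, TU, RW and PET) or in warfarin at 0, 150 or 300 µM (76 larvae of the same 4 strains), with 4 to 8 larvae in each of 48 groups. Valproic acid is an antiepileptic that inhibits histone deacetylases, hydroxyurea blocks ribonucleotide reductase and thereby DNA synthesis, and warfarin is a vitamin K antagonist. Each experiment had its own untreated larvae, which were shared by the doses of that compound, and counts came from Lasy-Seq, which sequences the 3′ ends of polyadenylated RNA. Every larva was exposed once and the strains came from separate clutches, so the spread below is the spread between single larvae, and strain and clutch cannot be told apart.

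The total count per larva lay between 124136 and 14186334 (median 2272278) and differed by strain. Under 0.5 times the median of their experiment were 37 larvae of the valproic acid experiment (19 of them PET and 12 TU), 25 of the hydroxyurea experiment (21 of them AB) and 9 of the warfarin experiment (8 of them TU). A gene with 3 counts stands at 24.2 CPM (counts per 1e6 counts of the larva) in the larva with the fewest counts. Of the 37 mitochondrial genes, 19 had a count in every larva (the 13 mt- genes and 6 others), NC-002333.8 had one in 223 of 340 larvae, and 14 had a mean count under 50, so small changes of the scarce members were not detectable at this depth. Since whole larvae were extracted, fewer cells of a type and less RNA per cell cannot be told apart in any value below.

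Mitochondrial genes took 2.12% to 12.4% of the counts of a larva, with a median of 8.60% over 340 larvae. Few genes made up this share. mt-co2 gave 15.4% of all mitochondrial counts, mt-co1 14.5%, mt-co3 13%, mt-atp6 12.1% and NC-002333.4 10%, which together came to 65.3%. The 13 mt- genes gave 82.8% and the 24 NC-002333 genes 17.2%, most of it from NC-002333.4, NC-002333.9 (4.02%) and NC-002333.17 (0.949%). The composition differed widely within complexes: in complex I, mt-nd4 gave 4.95%, mt-nd1 4.85% and mt-nd2 4.21%, while mt-nd5 gave 0.345% and mt-nd4l 0.0330%, and in complex V, mt-atp8 gave 0.283%. These are shares of counts at 3′ ends, without division by gene length. How evenly the RNAs of different genes were captured was not tested, so the shares do not rank the genes by level. The strand used in counting is not given in the sources used here, so reads of mt-nd6, encoded on the strand opposite to its neighbour mt-nd5, and of the overlapping neighbours mt-atp8 and mt-atp6 or mt-nd4l and mt-nd4 could not be fully told apart. In single larvae the mt- genes made up 56.2% to 91.8% of the mitochondrial counts (median 83.6%).

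**Figure D1:**
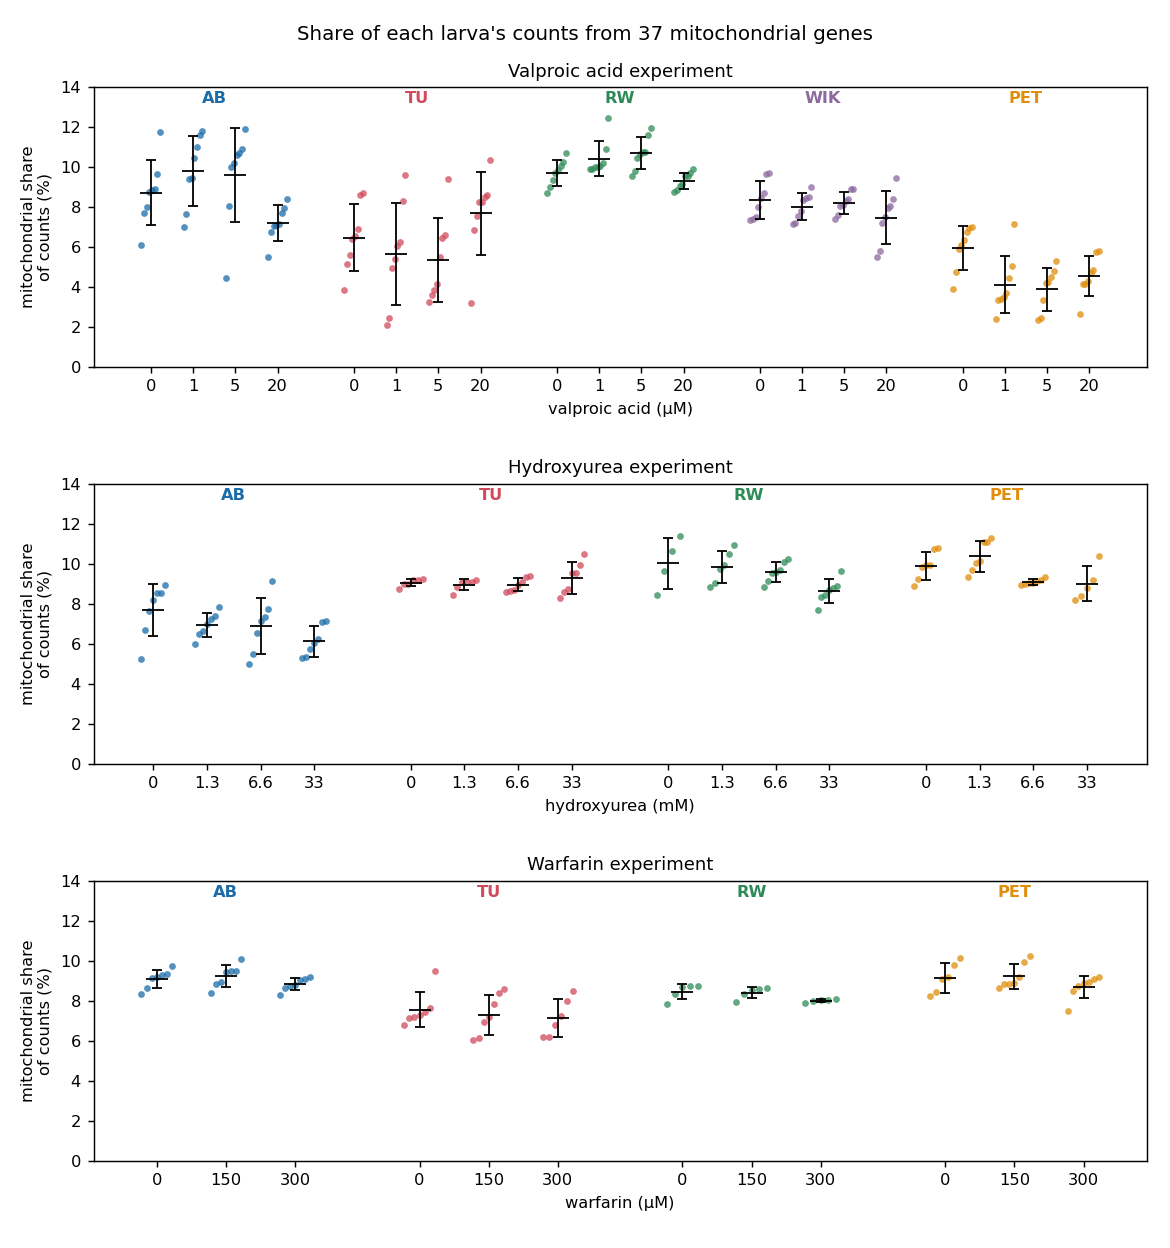
Share of each larva's counts (percent, vertical axis) from the 37 mitochondrial genes by strain and dose (horizontal axis) in the 3 experiments. Points are larvae, horizontal bars are group means and whiskers are SD. The lowest group mean is that of PET at 5 µM valproic acid (3.90%) and the highest that of RW at the same dose (10.7%). In that experiment group means were 3.90% to 5.96% in PET and 9.32% to 10.7% in RW. Those of TU (5.36% to 7.69%) overlap with PET and those of AB (7.21% to 9.81%) with RW.

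To see whether untreated strains differed, the share was first compared without exposure. In the valproic acid experiment the mean share was 9.70% ± 0.666 (SD, n = 8) in RW, 8.73% ± 1.62 in AB, 8.35% ± 0.956 in WIK, 6.48% ± 1.66 in TU and 5.96% ± 1.10 in PET. The lowest RW larva, at 8.68%, stood above the highest PET larva, at 6.98%, whereas TU and PET overlapped, as did RW, AB and WIK. In the hydroxyurea experiment the order was another: RW stood at 10.0% ± 1.28 (n = 4), PET at 9.93% ± 0.702 (n = 7), TU at 9.08% ± 0.184 (n = 6) and AB at 7.69% ± 1.31 (n = 7). In the warfarin experiment PET stood at 9.15% ± 0.739 (n = 6), AB at 9.11% ± 0.464 (n = 7), RW at 8.47% ± 0.372 (n = 5) and TU at 7.57% ± 0.894 (n = 7). PET was therefore the lowest strain in 1 experiment and among the highest in the other two. The strain with the lowest share in each experiment was also the strain with the lowest median total count among untreated larvae: PET at 1557113 counts with valproic acid, AB at 1327812 with hydroxyurea and TU at 827255 with warfarin.

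Single genes were tested with edgeR's quasi-likelihood test, and a gene is said to have passed, risen or fallen where its Benjamini-Hochberg adjusted p over all genes tested was under 0.05. Among untreated larvae of the valproic acid experiment, 24 of 35 tested members differed between strains, against 44.3% of all genes tested. In the hydroxyurea experiment 20 of 34 differed, against 12% of all genes, and in the warfarin experiment 13 of 29, against 5.98%. The members that passed in all 3 experiments were NC-002333.5, NC-002333.11, mt-co1, mt-nd3, mt-atp6 and NC-002333.9. With total count as a covariate 8, 10 and 7 members differed, and NC-002333.11 was the only one to pass in all 3 experiments. Without AB 10 differed in the hydroxyurea experiment, and without TU 3 in the warfarin experiment. The shares of all genes above belong to the reported fits, and none is given for these alternatives. Among the members that passed in all 3 experiments without the covariate, NC-002333.5 had the widest mean range between the highest and lowest strain. It was 2.51 on the log2 scale, followed by NC-002333.11 at 1.86 and mt-co1 at 0.81.

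NC-002333.5 had its lowest untreated median in a different strain each time. In the valproic acid experiment it ranged from 6.38 to 28.1 CPM in PET (median 15.1) and from 42.0 to 159 CPM in RW (median 86.1), with no overlap between them (adjusted p of any strain difference 4.28e-07). In the hydroxyurea experiment AB lay at 5.84 to 33.4 CPM (median 25.4) and PET at 78.7 to 215 CPM (median 140), again without overlap (adjusted p 3.83e-06). In the warfarin experiment TU had a median of 12.1 CPM and AB of 37.4 CPM (adjusted p 0.0257).

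NC-002333.11 was highest in AB in the valproic acid experiment, at a median of 445 CPM (245 to 929) against 134 CPM (88.2 to 268) in WIK. In the hydroxyurea experiment it was highest in PET, at 271 CPM (171 to 330), and AB, at 42.8 CPM (33.3 to 80.2), was now the lowest, with no overlap (adjusted p 1.37e-09). The order of the strains thus did not carry over between experiments for this gene either. mt-co1, the catalytic subunit of cytochrome c oxidase, had untreated medians of 15152 CPM in RW and 7422 CPM in PET with valproic acid, of 15015 CPM in PET and 9933 CPM in AB with hydroxyurea, and of 14028 CPM in AB and 8570 CPM in TU with warfarin. Over the 29 members tested in all 3 experiments, RW was above the mean of the other strains in each experiment for 12, and TU below it in each for 5.

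Pooled over strains, the share was somewhat lower at the highest doses, and some strains changed more. At 20 µM valproic acid the median share was 7.63% against 8.01% in untreated larvae, at 33 mM hydroxyurea 8.52% against 9.11%, and at 300 µM warfarin 8.52% against 8.67%. Averaged over strains, the mean share at the highest dose was lower than in controls by 0.594 percentage points with valproic acid, 0.902 points with hydroxyurea and 0.399 points with warfarin. These differences compare with a spread between larvae of a group (SD) of 1.43, 0.786 and 0.652 points, so that only the difference with hydroxyurea was larger than that spread. The spread describes single larvae and does not tell whether a mean changed. In single strains the mean share went at 33 mM hydroxyurea from 7.69% to 6.14% in AB and from 10.0% to 8.66% in RW. The share was lower at the highest dose in 4 of 5 strains with valproic acid, in 3 of 4 with hydroxyurea and in 4 of 4 with warfarin, and the exception was TU both times. No test was made of the share, which is a sum over the members.

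With valproic acid the mean shares of the strains moved in different directions, which was not tested. In PET the mean share was 5.96% in untreated larvae, 4.13% at 1 µM, 3.90% at 5 µM and 4.55% at 20 µM, and 5, 3 and 1 of 8 exposed larvae lay below all 8 controls. In AB it was 8.73% in controls, 9.81% at 1 µM, 9.61% at 5 µM and 7.21% at 20 µM. In TU it was 6.48% ± 1.66 (SD) in controls, 5.36% ± 2.09 at 5 µM and 7.69% ± 2.07 at 20 µM. There 1 of 8 larvae at 20 µM lay above all controls and 1 below. The median total count moved beside these shares: in PET it was 1557113 in controls and 960618.5, 727935.5 and 1018274.5 at the 3 doses, and in TU it was 1582654.5 in controls, 849131 at 5 µM and 1971863.5 at 20 µM. Without the larvae under 0.5 times the median total count, the difference at 20 µM averaged over strains was 0.146 points below controls in place of 0.594. The shares of the nuclear genes of the respiratory complexes (85 genes of the table) were 1.97% in controls and 1.64% at 20 µM valproic acid (medians), 3.00% and 3.00% with hydroxyurea at 0 and 33 mM, and 3.17% and 3.17% with warfarin at 0 and 300 µM.

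**Figure D2:**
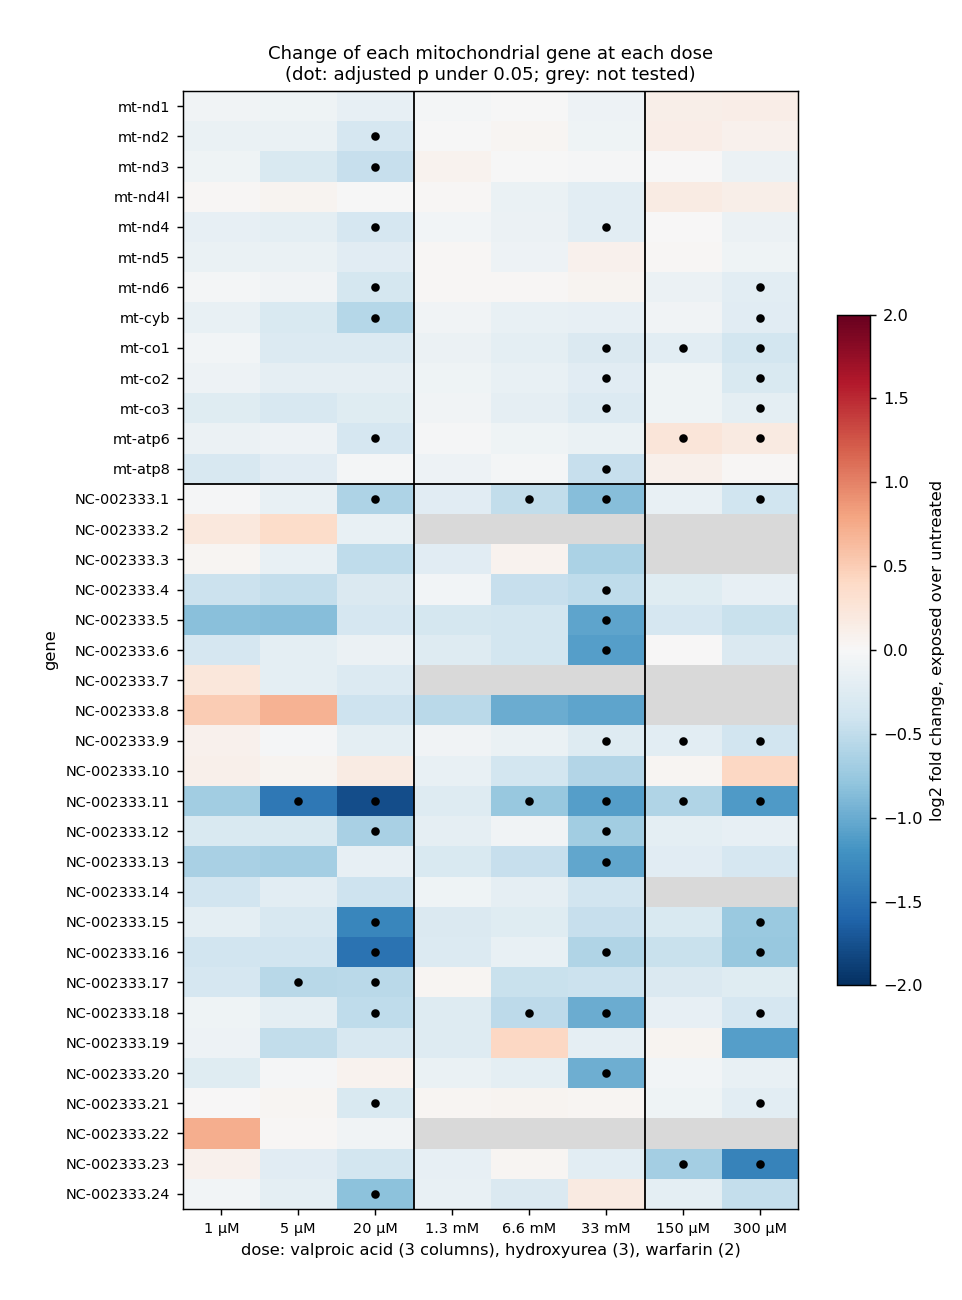
Log2 fold change of each mitochondrial gene (rows) at each dose against untreated larvae of the same experiment (columns), from edgeR with strain as a term. Blue is lower and red higher in exposed larvae, dots mark adjusted p under 0.05 and grey cells were not tested. Dots gather at the highest doses and on blue cells, and mt-atp6 with warfarin carries the only dots on red cells.

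Single members were next compared between doses, with strain as a term in the fit. At 1 µM valproic acid 0 of 37 passed by edgeR's quasi-likelihood test, as did 0.0055% of all genes (7 members had an unadjusted p under 0.05, and DESeq2 called 1). At 5 µM 2 fell (4 without AB or without RW, 1 without PET), against 2.17% of all genes called lower, and at 20 µM 15 fell and none rose, against 20.5% of all genes called and 11.5% called lower. The median log2 fold change at 20 µM was -0.33 over the 37 members and 0.09 over all genes, and 35 of the 37 had a negative value. With hydroxyurea 34 members were tested: 0 passed at 1.3 mM (0.00665% of all genes; 2 members at an unadjusted p under 0.05, 0 by DESeq2), 3 fell at 6.6 mM (0.532% lower; 0 without PET), and 16 fell at 33 mM (22.8% of all genes called, 12.5% lower). The median at 33 mM was -0.33 over the members and 0.02 over all genes. With warfarin 31 members were tested: 4 fell and mt-atp6 rose at 150 µM (3.19%), and 13 fell and mt-atp6 rose at 300 µM (9.61% of all genes called, 4.95% lower), with medians of -0.23 and 0.00. The 5 calls at 150 µM were 1 without AB, 2 without RW and 3 without TU or without PET. Scaling to the total count alone, in place of the trimmed mean of M-values (TMM), moved the median of all genes from 0.09 to 0.25 at 20 µM valproic acid, where 8 members then fell and 0 rose, and from 0.00 to 0.10 at 300 µM warfarin, where 9 then fell and 3 rose (mt-atp6, mt-nd1 and mt-nd2). At 150 µM warfarin 2 then fell and the same 3 rose.

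In the fit over all strains more complex I subunits passed at the highest dose of valproic acid than of the other compounds, a difference that was not tested. At 20 µM mt-nd3 fell from a median of 3485 CPM (1383 to 5205) to 3069 CPM (529 to 4398), a log2 fold change of -0.46 ± 0.13 (SE; edgeR adjusted p 0.00530), lower in 5 of 5 strains. mt-nd6 fell by 0.36, mt-nd4 by 0.33 and mt-nd2 by 0.33 on the log2 scale, whereas mt-nd1 (-0.17), mt-nd5 (-0.22) and mt-nd4l (-0.01) did not pass. In all of them the exposed and untreated larvae overlapped. At 33 mM hydroxyurea mt-nd4 fell by 0.21, and at 300 µM warfarin mt-nd6 fell by 0.20, and these were the only complex I subunits to pass in those comparisons. Within strains at 20 µM valproic acid only mt-nd5 and mt-nd6 passed, both in PET. At 33 mM hydroxyurea mt-nd2, mt-nd3 and mt-nd4 fell in AB and mt-nd6 rose in TU. With valproic acid the strain by dose interaction passed for every complex I subunit but mt-nd4l. At 20 µM mt-nd4 stood at 0.22 in TU and mt-nd6 at 0.12 in AB, and both were negative in the other strains.

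mt-cyb, the only mitochondrially encoded subunit of complex III, had the largest fall of any mt- gene at 20 µM valproic acid. It went from a median of 6554 CPM (3314 to 8817) to 5214 CPM (1640 to 8421), a log2 fold change of -0.57 ± 0.11 (adjusted p 6.21e-06), lower in 5 of 5 strains, and its share of the mitochondrial counts went from 8.30% ± 1.09 to 7.00% ± 1.49 (SD). With warfarin at 300 µM it went from 7540 CPM (6449 to 9164) to 7169 CPM (5689 to 8970) and fell by 0.23 (adjusted p 0.000183). At 33 mM hydroxyurea its log2 fold change was -0.16 and did not pass.

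In the fit over all strains, the 3 cytochrome c oxidase subunits all fell with hydroxyurea and with warfarin. At 33 mM hydroxyurea mt-co1 fell by 0.28, mt-co3 by 0.27 and mt-co2 by 0.23, and at 300 µM warfarin mt-co1 fell by 0.37, mt-co2 by 0.31 and mt-co3 by 0.20. mt-co2, the member with the most counts, went with warfarin from a median of 14523 CPM (11825 to 19410) to 12969 CPM (10559 to 15382), a log2 fold change of -0.31 ± 0.05 (adjusted p 1.53e-07), lower in 4 of 4 strains. In AB and in TU every larva at 300 µM lay below every untreated larva, whereas in RW and PET the groups overlapped. With hydroxyurea mt-co2 went from 14894 CPM (8995 to 18647) to 13395 CPM (9139 to 19512; adjusted p 0.00138), and without PET it did not pass (-0.17). Within strains at 33 mM all 3 subunits passed in AB, mt-co2 alone in PET and none in TU or RW. In TU the values of mt-co1, mt-co2 and mt-co3 were -0.04, 0.02 and -0.02. With valproic acid at 20 µM the log2 fold changes over all strains were -0.27, -0.18 and -0.24 for mt-co1, mt-co2 and mt-co3, and none passed. Within strains mt-co2 and mt-co3 passed in PET. All 3 values were positive in TU and negative in the other strains.

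In complex V, mt-atp6 was the only member that rose in any of these comparisons, except that with scaling to the total count alone mt-nd1 and mt-nd2 also rose with warfarin and mt-nd6 at 33 mM hydroxyurea. With warfarin it went from a median of 10372 CPM (6428 to 12673) to 12964 CPM (8366 to 15664) at 300 µM, and 15 of 25 exposed larvae lay above all untreated larvae of their strain. The log2 fold change was 0.19 ± 0.06 (adjusted p 0.0185) at 300 µM and 0.24 ± 0.06 (adjusted p 0.00354) at 150 µM. Its share of the mitochondrial counts rose from 11.9% ± 1.62 to 15.2% ± 1.73 (SD), and in AB from 11.3% ± 0.429 to 16.3% ± 1.73 with every exposed larva above every control in CPM. The fold change at 300 µM passed in 11 of 18 alternatives. It did not pass with total count as a covariate (0.13), without AB (0.12), without PET (0.18) or without the larvae numbered 1, 2, 3 or 5 (0.16 to 0.18). At 20 µM valproic acid mt-atp6 fell by 0.34 (adjusted p 0.00934), and at 33 mM hydroxyurea its value was -0.13 and did not pass. mt-atp8, whose gene overlaps mt-atp6, fell by 0.46 at 33 mM hydroxyurea (adjusted p 0.0286) and did not pass with the other compounds (-0.04 and 0.02) in the fit over all strains. With hydroxyurea and with valproic acid its values in single strains had opposite signs, as given below.

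**Figure D3:**
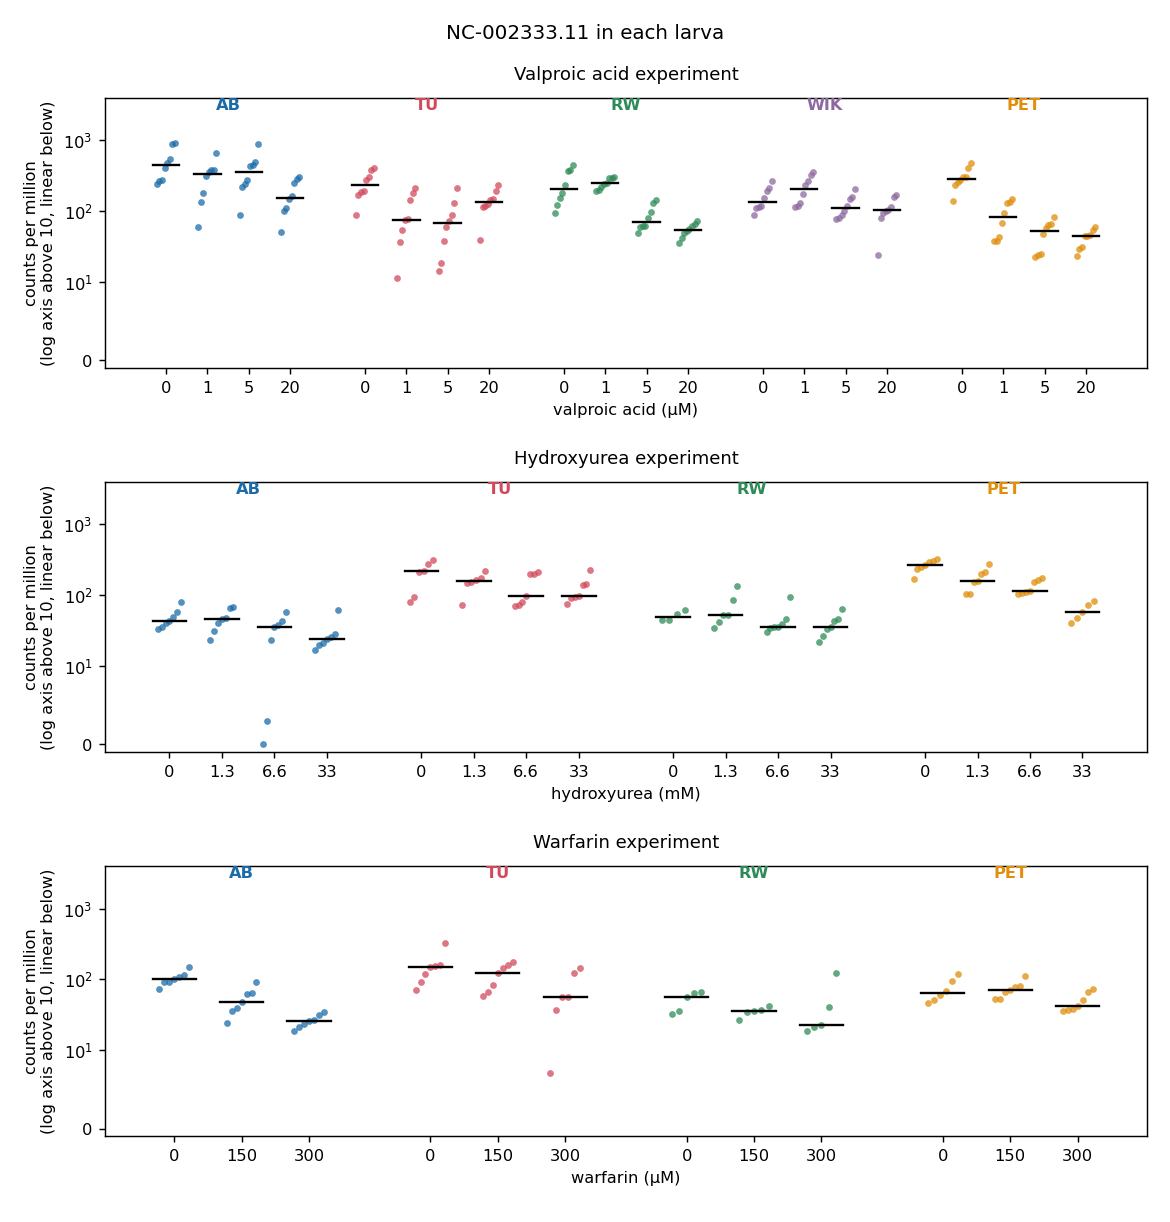
Level of NC-002333.11 in CPM in each larva by strain and dose (vertical axis logarithmic above 10 and linear below, horizontal axis dose). Points are larvae and bars are group medians. At the highest doses the medians are lower than in the untreated larvae of the same strain throughout, and in RW and PET at 20 µM valproic acid, PET at 33 mM hydroxyurea and AB at 300 µM warfarin the points do not overlap with the controls.

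Among the NC-002333 genes, 9 of 24 fell at 20 µM valproic acid, 11 of 21 tested at 33 mM hydroxyurea and 8 of 18 tested at 300 µM warfarin, where 11.5%, 12.5% and 4.95% of all genes were called lower. The libraries take 3′ ends of polyadenylated RNA, so these counts may not measure mature transfer or ribosomal RNAs. Which RNAs gave them was not tested. In the fit over all strains NC-002333.11 fell with all 3 compounds and already at the middle doses. Within strains it did not pass in AB, RW or WIK at 5 µM valproic acid or in TU or RW at 6.6 mM hydroxyurea. At 150 µM warfarin it passed in no strain. Its strain by dose interaction passed with valproic acid (edgeR adjusted p 1.62e-06). With valproic acid it had a median of 263 CPM (87.6 to 929) in controls, of 85.2 CPM (14.0 to 878) at 5 µM and of 86.6 CPM (23.2 to 304) at 20 µM, with log2 fold changes of -1.43 ± 0.21 (adjusted p 4.34e-07) and -1.77 ± 0.21 (adjusted p 4.59e-13). It was lower at 20 µM in 5 of 5 strains, and in RW (35.7 to 73.2 CPM against 94.1 to 448) and PET (23.2 to 59.8 against 137 to 477) the exposed larvae did not overlap with the controls.

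With hydroxyurea NC-002333.11 had a median of 87.1 CPM (33.3 to 330) in controls, 70.9 CPM (0 to 215) at 6.6 mM and 46.6 CPM (17 to 224) at 33 mM, and it fell by 0.76 and by 1.11 on the log2 scale (adjusted p 0.00276 and 7.54e-08). Without PET it did not pass at 6.6 mM. With warfarin it had 91.6 CPM (31.8 to 328) in controls, 63.1 CPM (24.3 to 175) at 150 µM and 37.0 CPM (7.10 to 143) at 300 µM, and fell by 0.60 and by 1.14 (adjusted p 0.0397 and 1.19e-06). At both highest doses the 4 strains were all lower. The ranges over all strains overlapped in each comparison. Within strains at the highest dose they overlapped in all but PET with hydroxyurea and AB with warfarin.

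The lists of members that fell at the highest dose overlapped in part. Of all genes tested, 11.5%, 12.5% and 4.95% were called lower with valproic acid, hydroxyurea and warfarin. The overlap over all genes was not counted, and a member absent from a list may only have missed the threshold. Of the 15 with valproic acid and the 16 with hydroxyurea 6 were in both lists, of the 15 with valproic acid and the 13 with warfarin 8, and of the 16 with hydroxyurea and the 13 with warfarin 8. NC-002333.1, NC-002333.11, NC-002333.16 and NC-002333.18 were in all 3. Of these, NC-002333.18 and NC-002333.1 are neighbours in the count table and varied together from larva to larva. The same holds for mt-co1 and NC-002333.9, both in the hydroxyurea and warfarin lists. It also holds for mt-nd6 and NC-002333.21 (valproic acid and warfarin lists) and for NC-002333.5 and NC-002333.13 (hydroxyurea list). Each was counted as a separate member, and whether neighbours share reads was not tested. NC-002333.16 went from a median of 24.6 to 7.76 CPM at 20 µM valproic acid (log2 fold change -1.47 ± 0.20, adjusted p 3.25e-10), with no overlap in AB and RW, and fell by 0.60 with hydroxyurea and 0.75 with warfarin. NC-002333.18 went from 248 to 192 CPM with valproic acid, from 788 to 397 CPM with hydroxyurea and from 400 to 310 CPM with warfarin, falling by 0.51, 0.99 and 0.34.

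In the fit over all strains, other members fell with 1 compound by more than with the rest. NC-002333.15 fell by 1.30 at 20 µM valproic acid, from a median of 13 CPM (0.835 to 33.5) to 5.47 CPM (0 to 14.4; adjusted p 5.43e-07). NC-002333.6, NC-002333.5, NC-002333.13 and NC-002333.20 fell by 1.10, 1.05, 1.04 and 0.98 at 33 mM hydroxyurea and did not pass with valproic acid or warfarin. NC-002333.6 went from a median of 20.0 CPM (2.82 to 41.7) to 9.50 CPM (0 to 22.6; adjusted p 1.17e-05), and NC-002333.5 from 78.4 CPM (5.84 to 215) to 35.4 CPM (0 to 116; adjusted p 2.28e-05). At 20 µM valproic acid the strains went opposite ways for NC-002333.5 and NC-002333.13. These fell by 3.48 and 3.02 in AB and by 1.49 and 1.71 in WIK. In TU they rose by 2.02 and 2.37, and neither passed in RW or PET. NC-002333.23 fell by 1.33 at 300 µM warfarin, from 11.1 CPM (4.74 to 75.1) to 4.62 CPM (1.69 to 24.8; adjusted p 2.78e-07), and these levels correspond to a mean count of 19.0 per larva. These differences between compounds were not tested, since each compound had its own controls and larvae.

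The most counted NC-002333 genes changed less. NC-002333.4 fell by 0.51 at 33 mM hydroxyurea (adjusted p 0.0431; it passed in 5 of 18 alternatives and not, for example, without AB, at -0.28) and did not pass with valproic acid (-0.28) or warfarin (-0.16), and it varied widely without exposure, from 4823 to 29254 CPM over the 24 untreated larvae of the hydroxyurea experiment. NC-002333.9 was steadier. With warfarin it went from 4613 CPM (2812 to 5715) to 3870 CPM (2356 to 4808) at 300 µM, a log2 fold change of -0.39 ± 0.05 (adjusted p 2.23e-09), with every exposed larva of AB and of PET below every control, and it fell by 0.25 at 33 mM hydroxyurea (adjusted p 3.11e-05). With valproic acid its value was -0.20 and did not pass.

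To examine whether the response depended on strain, the interaction of strain and dose was tested in a fit with a mean for each group. With valproic acid 20 of 37 members passed, against 13.1% of all genes. With hydroxyurea 8 of 37 passed, against 2.83%, and with warfarin 0 of 32, against 0.546% (edgeR; 2 members at an unadjusted p under 0.05). Among the members that passed with valproic acid were 12 of the 13 mt- genes, the exception being mt-nd4l. With total count as a covariate 11 members passed with valproic acid and 12 with hydroxyurea, and with valproic acid 7 passed without PET and 13 without AB. With hydroxyurea the count was 3 without the larvae of low total count or without TU and 5 without AB, and by DESeq2 it was 22, 16 and 0 with the 3 compounds. No share of all genes is given for these alternatives, and the shares above are those of the reported fits.

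NC-002333.13 moved in opposite directions between strains at 20 µM valproic acid (interaction adjusted p 5.87e-09). In TU its median went from 30.3 CPM (5.84 to 61.7) to 145 CPM (0 to 447), with 7 of 8 exposed larvae above all controls, and it rose by 2.37 ± 0.48 on the log2 scale. In AB it went from 185 CPM (75.0 to 632) to 24.7 CPM (8.83 to 86.9), with 7 of 8 below all controls, and it fell by 3.02 (SE 0.49). In WIK it fell by 1.71. NC-002333.5 went the same way, with a rise of 2.02 in TU and falls of 3.48 in AB and 1.49 in WIK (interaction adjusted p 1.11e-07), and so did mt-atp8, which rose by 1.08 in TU (127 to 236 CPM, 7 of 8 above all controls) and fell by 1.56 in AB (344 to 127 CPM, 8 of 8 below) and by 0.92 in WIK (interaction adjusted p 2.37e-06). In RW mt-atp8 went from 348 CPM (191 to 618) to 685 CPM (480 to 781), with 7 of 8 above all controls, but this contrast did not pass within the strain. The median total count was 1582654.5 in controls and 1971863.5 at 20 µM in TU, and 2582194 and 1562085.5 in AB. When total count was held as a covariate, an alternative chosen after the data were seen, all 3 genes still passed in TU (2.36, 2.05 and 1.04 on the log2 scale for NC-002333.13, NC-002333.5 and mt-atp8) and in AB (-2.27, -2.79 and -1.32), but in WIK they no longer did.

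PET was the strain whose mitochondrial genes changed at the lowest dose. At 1 µM valproic acid 13 of 37 fell and NC-002333.22 rose in PET (9.49% of all genes called), whereas 0 passed in AB, TU, RW and WIK (edgeR; 6, 3, 0 and 5 members at an unadjusted p under 0.05; 0.0427% of all genes in AB and 0.00475% in each of the other three). NC-002333.22 had a mean count of 6.64 over all larvae and a count in 236 of them, so its rise rests on few counts. At 5 µM 11 fell in PET (6.43% of all genes called lower) and at 20 µM 12 (5.51%). mt-co3 fell in PET by 1.34 at 1 µM, by 1.30 at 5 µM and by 0.83 at 20 µM, and NC-002333.11 by 2.05, 2.98 and 3.18. With total count as a covariate 9 fell and 1 rose at 1 µM in PET, and 5 and 7 fell at 5 and 20 µM, with NC-002333.11 among them each time (-1.87, -2.74 and -2.99). At 20 µM 7 members fell in AB (4.48% of all genes called lower), 9 in WIK (6.46%; 1 with the covariate), 4 in RW (4.4%), and in TU 3 rose and 1 fell (6.95% called in either direction).

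With hydroxyurea at 33 mM, 12 members fell in AB (4.76% of all genes called lower), 7 in RW (3.94%), 6 in PET (5.76%), and in TU 6 fell and mt-nd6 rose (5.98% in either direction; 2 fell and mt-nd6 rose with total count as a covariate). In AB these included mt-co1, mt-co2, mt-co3, mt-nd2, mt-nd3, mt-nd4 and mt-cyb, while in TU they were mt-atp8 and 5 NC-002333 genes. mt-atp8 in TU went from 162 CPM (104 to 262) to 55.0 CPM (38.4 to 73.4), with 7 of 7 exposed larvae below all controls (log2 fold change -1.58 ± 0.27), and in RW from 149 CPM (111 to 322) to 254 CPM (184 to 359), which did not pass (interaction adjusted p 0.00125). mt-nd6 in TU went from 1628 CPM (1440 to 1808) to 2015 CPM (1764 to 2499) and rose by 0.37 ± 0.11 (adjusted p 0.0182). With warfarin at 300 µM, 7 members fell and mt-atp6 rose in AB (2.74%), 7 fell in TU (1.8% lower), and 0 passed in RW (1.91%) and PET (0.884%) in edgeR, where 4 and 9 members had an unadjusted p under 0.05. With the covariate 2 fell in PET at 300 µM.

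**Figure D4:**
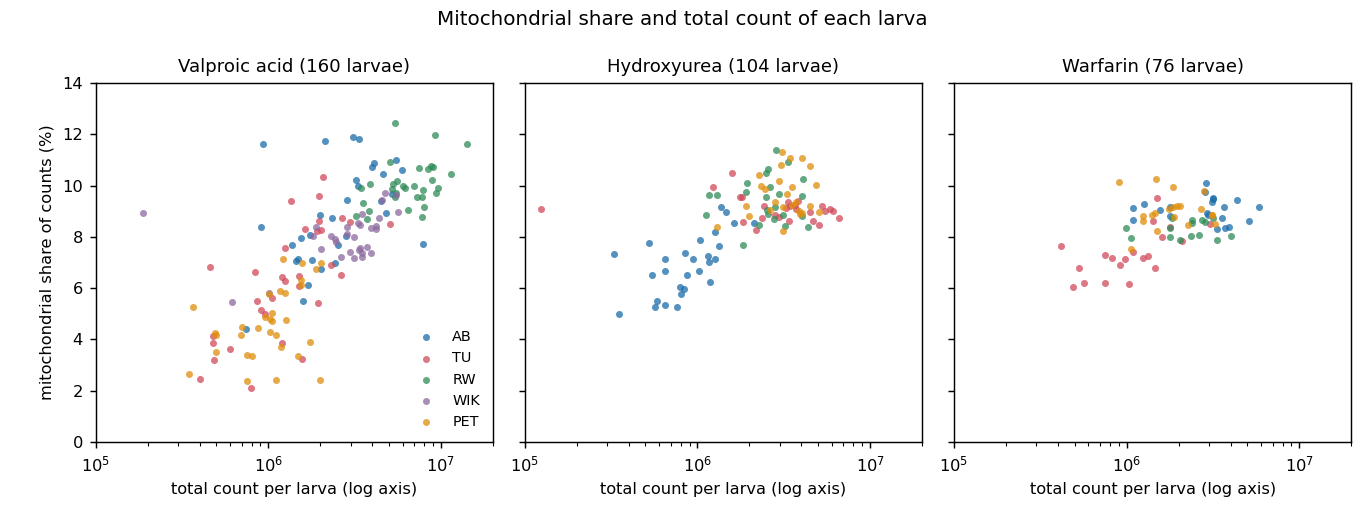
Mitochondrial share of counts (percent, vertical axis) against the total count of each larva (horizontal axis, logarithmic), coloured by strain, in the 3 experiments. Larvae with more counts had a higher share: Pearson's r over all larvae was 0.77, 0.64 and 0.55, and within strain and dose 0.42, 0.17 and 0.36.

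The mitochondrial share was next set against the total count of the larva. Over all larvae of an experiment the correlation of the share with the log10 total count was 0.77 with valproic acid (n = 160), 0.64 with hydroxyurea (n = 104) and 0.55 with warfarin (n = 76), where the points share strain and dose. After the mean of each strain and dose was taken off, Pearson's r was 0.42, 0.17 and 0.36 and Spearman's rho 0.45, 0.13 and 0.31. Without the 2 larvae of each experiment farthest from their group mean in log10 total count, r was 0.44, 0.25 and 0.35. Within groups the share was higher in larvae above the median total count of their group in 15 of 20, 8 of 16 and 8 of 12 groups. The slope was 2.74, 0.646 and 1.21 percentage points per unit of log10 total count. The share contains mitochondrial counts in both terms, and these values are descriptions without a test.

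Single members were tested for a relation with total count in a fit that held the mean of each strain and dose. With valproic acid 23 of 37 were higher in larvae with more counts, all 13 mt- genes among them, against 15.2% of all genes called higher (20.7% in either direction). With hydroxyurea 6 of 37 were higher (1.25% of all genes called higher) and with warfarin 10 of 34 (2.96%), and none was lower in any experiment. The median slope with valproic acid was 0.77 on the log2 scale per unit of log10 total count over the members and 0.27 over all genes. The members that passed in all 3 experiments were NC-002333.13, NC-002333.5, mt-atp6, mt-co1, mt-nd2 and mt-nd4. NC-002333.13 had the steepest slopes of these with valproic acid and warfarin, at 2.03 ± 0.35 (SE), 1.36 ± 0.36 and 2.52 ± 0.33 in the 3 experiments (adjusted p 4.80e-06, 0.0287 and 4.85e-07), and NC-002333.5 had 1.80, 1.77 and 2.33. mt-co1 had 1.05, 0.41 and 0.76, while mt-nd6 passed only with valproic acid, at 0.46. These counts depended on single strains: 9 passed with valproic acid without TU and 15 without AB, 0 with hydroxyurea without AB or without PET and 3 without TU, and 4 with warfarin without TU, of which 3 were higher and 1 lower. Scaled to the total count alone, the all-gene median slopes went from 0.27, 0.15 and 0.09 to -0.01, -0.06 and 0.00, and 15 members passed with valproic acid and 0 with hydroxyurea.

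**Figure D5:**
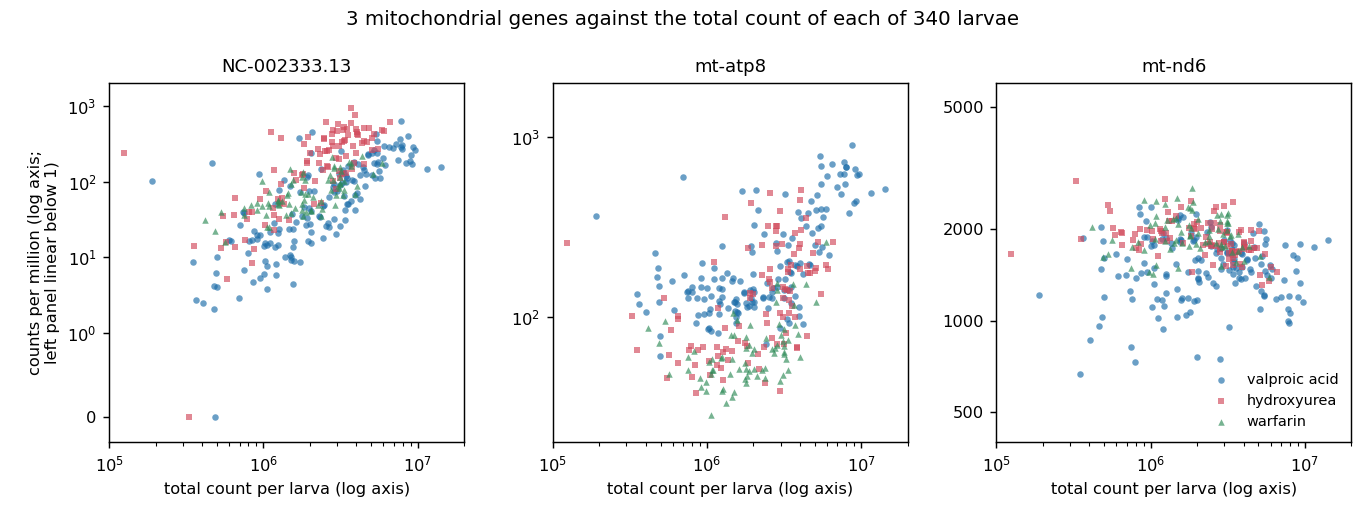
Level in CPM (vertical axis, logarithmic, but linear below 1 for NC-002333.13 and below 10 for the others) of NC-002333.13, mt-atp8 and mt-nd6 against the total count of each of 340 larvae (horizontal axis, logarithmic), coloured by experiment. NC-002333.13 climbs with total count in each experiment, mt-atp8 less evenly, and mt-nd6 stays between 669.5 and 2869 CPM throughout.

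Members also varied together from larva to larva. Over 340 larvae, after the mean of each group was taken off, the correlation of log2 CPM was 0.87 between NC-002333.17 and NC-002333.4, 0.86 between NC-002333.18 and NC-002333.1, 0.85 between mt-nd6 and NC-002333.21, 0.85 between mt-co1 and NC-002333.9, 0.83 between mt-nd2 and mt-atp6, and 0.82 both between mt-co2 and mt-co3 and between NC-002333.5 and NC-002333.13. Over the 78 pairs of mt- genes it ran from -0.16 (mt-atp8 and mt-nd6) to 0.83 with a median of 0.50, and over all 666 pairs the median was 0.09. Of these pairs NC-002333.18 and NC-002333.1, mt-nd6 and NC-002333.21, mt-co1 and NC-002333.9, and NC-002333.5 and NC-002333.13 are neighbours in the table. Over all 36 pairs of neighbours it ran from -0.07 to 0.86 with a median of 0.18, beside a median of 0.09 over the other 630 pairs. Among neighbouring mt- genes the value was 0.77 for mt-atp6 and mt-co3, 0.30 for mt-atp8 and mt-atp6, 0.22 for mt-nd5 and mt-nd6 and 0.04 for mt-nd4l and mt-nd4. The points share the library and its total count, so these are descriptions. Whether neighbours also share reads was not tested.

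The nuclear partners of the mitochondrial genes were counted from lists of the respiratory complexes. At 20 µM valproic acid 73 of 83 tested nuclear subunits fell and 1 rose (20.5% of all genes called), with a median log2 fold change of -0.44 beside 0.09 over all genes. By complex, 31 of 35 fell in complex I, 4 of 5 in complex II, 8 of 9 in complex III, 16 of 18 in complex IV and 14 of 16 in complex V. Examples are ndufv1, which binds NADH in complex I (-0.62 ± 0.11), sdha, the flavoprotein of complex II (-0.61 ± 0.12), and cox6a2, the striated muscle form of a complex IV subunit (-2.24 ± 0.19; edgeR adjusted p 6.52e-22). At 33 mM hydroxyurea 15 of 83 fell and 1 rose (22.8% of all genes called; median -0.12), and at 300 µM warfarin 9 of 82 fell, 8 of them among the 18 of complex IV (9.61%; median -0.06), with cox7a1 at -0.86 ± 0.15. In complex IV, 8 of 18 nuclear and 3 of 3 mitochondrial subunits thus fell with warfarin. At 20 µM valproic acid 16 of 18 nuclear subunits of complex IV fell, and none of the 3 mitochondrial ones passed in the fit over all strains. The pooled values of these 3 were negative too, and near in size to those that passed with hydroxyurea, but the strains differed. In TU mt-co1, mt-co2 and mt-co3 stood at 0.42, 0.47 and 0.39. In PET they stood at -0.77, -0.65 and -0.83, and there mt-co2 and mt-co3 passed. In AB, RW and WIK all 3 were negative and did not pass. The interaction of strain and dose passed for all 3. mt-co2 passed when TU was left out, so missing the threshold does not show that the 3 were unchanged.

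Other nuclear genes that serve mitochondria were counted in the same way, beside 20.5%, 22.8% and 9.61% of all genes called at the highest dose of valproic acid, hydroxyurea and warfarin. Of the nuclear genes of mitochondrial transcription and RNA processing, 1 of 17 tested rose with 20 µM valproic acid (fastkd1, 0.36), 0 of 18 passed with 33 mM hydroxyurea and 1 of 16 rose with 300 µM warfarin (slirp, 0.34). Of the genes of mitochondrial DNA replication and nucleotide supply, 3 of 11 rose and mgme1 fell with valproic acid, 0 of 10 passed with hydroxyurea, and mgme1 was the only one of 9 to pass with warfarin, where it fell (-0.43). Of 74 mitochondrial ribosomal proteins, 6 rose and 6 fell with valproic acid, 1 rose and 2 fell with hydroxyurea, and 10 rose with warfarin (mrpl19 by 0.62, SE 0.0999), with median log2 fold changes of 0.04, -0.05 and 0.20 beside 0.09, 0.02 and 0.00 over all genes. Of the mitochondrial chaperone, protease and stress-response genes, 3 of 17 rose and chac1 fell with valproic acid, 4 of 15 rose and 3 fell with hydroxyurea, and 6 of 15 rose with warfarin, with phgdh, an enzyme of serine synthesis, rising by 1.24 with valproic acid and by 0.89 with warfarin. None of the 3 tested regulators of mitochondrial biogenesis passed with any compound at the highest dose.

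Markers of tissues were set beside the mitochondrial genes. Of all genes, 20.5%, 22.8% and 9.61% were called at the highest dose of valproic acid, hydroxyurea and warfarin. Those called lower were 11.5%, 12.5% and 4.95%. All 12 exocrine pancreas genes fell at the highest dose of each compound, and their summed level went from a median of 12461 CPM (1712 to 27894) to 1061 CPM (306 to 2338) with valproic acid, from 8440 to 1003 CPM with hydroxyurea and from 10990 to 3907 CPM with warfarin. Of 15 fast skeletal muscle genes, 13 fell and tnnt3a rose at 20 µM valproic acid, from a summed 77576 CPM (44503 to 110701) to 61820 CPM (30688 to 79346), whereas with hydroxyurea 3 rose and 1 fell (74411 to 81815 CPM) and with warfarin 2 fell (71234 to 72917 CPM). Of 78 cytosolic ribosomal proteins, 36 fell at 20 µM valproic acid, and of 77 tested 14 fell and 2 rose at 33 mM hydroxyurea and 36 fell at 300 µM warfarin. The liver list went from 6211 to 5024 CPM with valproic acid (3 of 7 lower and 1 higher), from 7679 to 7602 CPM with hydroxyurea (3 lower and 2 higher) and from 8075 to 8994 CPM with warfarin (2 lower and 2 higher). The heart list went from 209 to 189 CPM with valproic acid (2 of 7 lower and 1 higher), from 181 to 226 CPM with hydroxyurea (0 of 6 called) and from 178 to 209.5 CPM with warfarin (1 of 6 higher). The ionocyte list went from 179 to 149 CPM with valproic acid (4 of 6 lower and 1 higher), from 129 to 139 CPM with hydroxyurea (1 of 6 lower) and from 120 to 136 CPM with warfarin (0 of 6 called). The part of these tissues in the mitochondrial values was not tested.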

How the data were processed

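RNA of single larvae had been sequenced by Lasy-Seq (3′ libraries, paired-end 150 bp) and assigned to genes of GRCz11 by the authors. The aligner and the strand setting are not given in the sources used here, and Seurat 5.1.0 is named in the submitters' processing notes. The table deposited by the authors holds estimated counts per gene and larva without normalization, 52 of whose values were not whole (6 members had such values), and these were rounded. Totals per larva are given with the results, and intervals from counts would cover counting error only. No pair of larvae had identical values.

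Each experiment was fitted on its own with edgeR 4.0.16 (limma 3.58.1, R 4.3.3): filterByExpr (minimum count 10, minimum total 15), TMM, the quasi-likelihood test and Benjamini-Hochberg adjustment over all genes kept. Models held strain and dose, a mean for each strain and dose (interaction, contrasts within a strain), strain in untreated larvae, or the log10 total count beside group means. The tested members numbered 37, 34 and 31 for dose, 37, 37 and 32 for the interaction, 35, 34 and 29 for untreated strains and 37, 37 and 34 for total count (valproic acid, hydroxyurea, warfarin). The fits were tested on simulated data. Alternatives were DESeq2 1.42.0, no filter, scaling to total count or on nuclear genes, total count as covariate, and leaving out larvae of low total count, each strain, each larva number, or adding that number as a block.

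Full statistics were given to the mt- gene and the 2 NC-002333 genes with the most counts, the 3 passing members with the largest rise and fall at each highest dose (mean count of at least 10), and the 3 passing members with the widest range between untreated strains in all 3 experiments. From each nuclear list the passing gene with the largest rise and fall was eligible. Members and lists were chosen with earlier results of these data known. Larvae were exposed once per experiment, so p-values measure the spread between larvae. No sequences or coordinates are given, since the RefSeq table used for names is of another assembly (GRCz12tu).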

Additional observations from a re-analysis of the deposited data

Results flagged for a closer look

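In 3 of 48 groups the mitochondrial share of 1 larva stood apart from its group, and in 4 of 48 groups the level of NC-002333.11 did, where chance gives such a larva in about 1 in 20 groups. The shares were 12.4% in RW larva 1 at 1 µM valproic acid (others 9.91% to 10.9%), 9.51% in untreated TU larva 7 of the warfarin experiment (others 6.79% to 7.64%) and 7.51% in PET larva 6 at 300 µM warfarin (others 8.52% to 9.19%). The levels of NC-002333.11 were 61.4 CPM in AB larva 6 at 33 mM hydroxyurea (others 17 to 28.0), 95.1 CPM in RW larva 3 at 6.6 mM hydroxyurea (others 30.1 to 45.9), 328 CPM in untreated TU larva 7 of the warfarin experiment (others 69.5 to 158) and 123 CPM in RW larva 4 at 300 µM warfarin (others 18.3 to 40.9). The untreated TU larva was high in both measures and had 1498009 counts.

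The dose effect differed between strains by the interaction test for 20 members with valproic acid. The adjusted p was 5.87e-09 for NC-002333.13, 1.11e-07 for NC-002333.5, 1.62e-06 for NC-002333.11, 2.37e-06 for mt-atp8, 0.000409 for NC-002333.4, 0.00103 for mt-co2, 0.00359 for mt-atp6 and 0.0106 for mt-co1. With hydroxyurea it differed for 8 members, with an adjusted p of 0.00125 for mt-atp8, 0.00201 for NC-002333.4, 0.00259 for mt-nd6 and 0.0286 for NC-002333.6.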

How the results depend on the processing

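Of 327 alternative counts of members, 258 stayed within 1.5 times the reported count and 69 did not. Shares of all genes called are given for the reported fits only. With the log10 total count as covariate the counts were 1 at 5 µM valproic acid, 11 for the valproic acid interaction and 8, 10 and 7 for untreated strains, and, in fits added after the data were seen, 1 in WIK at 20 µM valproic acid, 5 and 7 in PET at 5 and 20 µM, 3 in TU at 33 mM hydroxyurea and 2 in PET at 300 µM warfarin. Scaled to total count without TMM they were 1 and 8 at 5 and 20 µM valproic acid and 15 and 0 for total count with valproic acid and hydroxyurea. Without a filter they were 1 at 1 µM valproic acid, 14 and 1 for the interaction with hydroxyurea and warfarin and 10 for total count with hydroxyurea. DESeq2 gave 1 at 1 µM valproic acid and 16 for the hydroxyurea interaction. Without larvae of low total count they were 1 at 5 µM valproic acid, 3 for the hydroxyurea interaction, 4 for untreated strains with warfarin, and 9 and 0 for total count with valproic acid and hydroxyurea. The causes were not tested.

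Leaving out a strain moved counts too. Without AB they were 4 at 5 µM valproic acid, 1 at 150 µM warfarin, 13 and 5 for the interaction with valproic acid and hydroxyurea, 10 for untreated strains with hydroxyurea, and 15 and 0 for total count. Without TU they were 3 at 150 µM warfarin, 3 and 1 for the interaction with hydroxyurea and warfarin, 3 for untreated strains with warfarin, and 9, 3 and 4 for total count. Without RW they were 1 and 4 at 1 and 5 µM valproic acid and 2 at 150 µM warfarin. Without PET they were 1 at 5 µM valproic acid, 0 at 6.6 mM hydroxyurea, 3 at 150 µM warfarin, 7 for the valproic acid interaction and 0 for total count with hydroxyurea.

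Without 1 larva number at a time, the counts were 0 to 0, 1 to 2 and 12 to 15 for the doses of valproic acid, 0 to 0, 2 to 3 and 11 to 16 for hydroxyurea, 1 to 5 and 12 to 14 for warfarin, 11 to 19, 3 to 11 and 0 to 0 for the interaction, 21 to 24, 13 to 21 and 9 to 16 for untreated strains, and 14 to 25, 0 to 4 and 6 to 11 for total count. With the larva number as a block they were 0, 2 and 16, 0, 3 and 15, 4 and 14 for the doses, 19, 9 and 0 for the interaction, 24, 20 and 14 for untreated strains and 16, 8 and 10 for total count. Same-numbered larvae of different groups had a mean correlation of 0.039, 0.0061 and 0.012 in their deviations. For larvae of different numbers it was -0.0041, 9.9e-05 and -0.0011. The number was not treated as a pairing in the reported fits, and whether same-numbered larvae shared any handling was not tested.

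All 24 alternative share differences moved from the reported one by less than the SD between larvae. Those at 1 µM valproic acid, 1.3 mM hydroxyurea and 150 µM warfarin changed sign in some (to at most 0.193, 0.0048 and 0.153 points). Of 354 alternative fold changes, 331 kept direction and side of the threshold, 21 no longer passed, and mt-co2 at 20 µM valproic acid newly passed without TU (-0.36). The value of NC-002333.4 at 20 µM valproic acid was 0.032 without PET in place of -0.28, neither of which passed.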
